A study of Mus musculus with 41 samples.

Results

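Metabotropic glutamate receptor genes were measured in ribosome-bound RNA of direct pathway neurons of the mouse dorsal striatum after self-administration of cocaine or saline. The members were taken by gene symbol and are Grm2, Grm3, Grm4, Grm5, Grm7 and Grm8, which are 6 of the 32531 named genes in the count files. Mice of the line Drd1-TRAP CP73 carry an EGFP-tagged ribosomal protein, Rpl10a, under control of the Drd1 dopamine receptor gene, so that tagged polysomes can be pulled down with antibodies to EGFP. The strain was FVB/N-Swiss Webster crossed to C57BL/6 for at least 9 generations, and every group, controls included, carried the transgene. The labels give neither the sex of the mice, nor their age beyond the series' word adult, nor whether a library came from 1 animal or from a pool, so p-values measure the spread between libraries only.

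The 6 groups of immunopurified libraries came from adult mice with long access to cocaine or saline. At 24 h after extended self-administration there were 5 saline, 9 nonescalating cocaine and 5 escalating cocaine libraries. The corresponding numbers after about 1 month were 5, 11 and 4. The 2 remaining libraries were inputs, which are total RNA of saline mice before the pull-down and carry no time label. Nonescalating and escalating are the labels' words for the cocaine groups. Replicate numbers of the nonescalating groups start anew partway, which gives 6 and 3 libraries at 24 h and 6 and 5 at 1 month, here called run 1 and run 2. The word "extended" is missing from the 1 month labels of run 2 and of the escalating group.

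Metabotropic glutamate receptors are G protein-coupled receptors that adjust synaptic strength and excitability over a slower time course than glutamate-gated channels. Grm5, of group I, couples to Gq and calcium release and lies mostly on the postsynaptic side in striatal projection neurons. Grm2 and Grm3, of group II, and Grm4, Grm7 and Grm8, of group III, couple to Gi/o proteins and often lie on axon terminals, where they dampen transmitter release. Grm3 is also known from astrocytes, and Grm4 from the terminals of striatal projection neurons.

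Libraries held 5394332 to 23925655 counts assigned to named genes, with a median of 11340272. Drd1 was 401.6 to 773 CPM (counts per 1e6 counts on named genes) in the saline 24 h libraries and 330.5 to 445 CPM in the inputs. Drd2 and Penk, genes of the indirect pathway neurons, were at 14.5 to 49.0 and 133 to 186 CPM in the saline 24 h libraries against 187 to 217 and 952 to 1014 CPM in the inputs. In the saline libraries of both times against inputs, Drd1 was higher by 0.84 ± 0.22 (SE) on the log2 scale (adjusted p = 0.0407 by edgeR), while Penk was at -2.45 ± 0.19 and Drd2 at -2.999 ± 0.34, both also past the adjusted threshold. The labelled cell type thus had its defining markers. The library saline 24 h replicate 5 had the lowest total and stood apart in its markers: a 9-gene astrocyte list summed to 1122 CPM there and a 5-gene endothelial list to 1193 CPM, against medians of 244 and 93.6 CPM over the 39 purified libraries. The results that move most with it are also given without it.

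Grm5, the group I receptor, was the most abundant member in counts. In the saline 24 h libraries it measured 423, 479.7, 447.5, 374 and 627 CPM, in the order of replicates 1, 2, 3, 5 and 6. In the saline 1 month libraries it measured 425.8, 424, 405, 397 and 479 CPM. The 1 month values lie within the wider 24 h range. The 5 escalating libraries at 24 h measured 574, 496, 451, 476 and 502.5 CPM, and the 4 at 1 month 387, 447, 437 and 437 CPM. In nonescalating libraries the lowest, median and highest values were 335, 456 and 483 CPM at 24 h and 376, 452 and 549.5 CPM at 1 month. Every pair of cocaine and saline groups of the same time overlapped. The inputs held 455 and 419.8 CPM, inside the purified range. Group means ran from 426 ± 32.1 CPM (SD, n = 5) in saline at 1 month to 500.1 ± 46.0 CPM (SD, n = 5) in escalating at 24 h, a ratio of 1.17.

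Grm2 and Grm3, the group II receptors, differed widely in level. Grm3 measured 72.7, 105, 98.2, 182 and 176 CPM in the saline 24 h libraries, where the highest value is that of replicate 5. It measured 109, 152, 114, 105 and 129 CPM in saline at 1 month. The escalating libraries measured 102, 117, 101, 107 and 103 CPM at 24 h, the tightest purified group of this gene, with an SD of 6.52 CPM. Those at 1 month measured 104, 127, 124 and 114 CPM. Nonescalating libraries ran from 98.3 over a median of 130.3 to 153 CPM at 24 h, and from 81.7 over a median of 114 to 132 CPM at 1 month. The inputs, at 142 and 135.5 CPM, lay within the purified range of the saline libraries.

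Grm2 was near the limit of detection. In saline at 24 h it measured 0.912, 6.26, 0.956, 0 and 0 CPM, and in saline at 1 month 2.33, 6.69, 0.144, 2.02 and 1.84 CPM. In escalating libraries it measured 0, 1.82, 1.19, 7.09 and 3.26 CPM at 24 h and 2.05, 2.75, 1.87 and 0.709 CPM at 1 month. Nonescalating libraries ran from 0 over a median of 1.35 to 4.85 CPM at 24 h and from 0 over a median of 1.64 to 9.80 CPM at 1 month. All groups overlapped, and the gene was at 0 counts in 6 of the 39 purified libraries. For the libraries saline 24 h replicates 5 and 6, a count of 0 allows up to 0.556 and 0.233 CPM (3 counts, counting error only). The inputs held 10 and 2 counts of Grm2, or 0.862 and 0.248 CPM. Group means lay between 1.59 and 2.67 CPM with SDs of 0.845 to 2.74 CPM. No order among groups could be detected beyond this spread.

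Grm4, Grm7 and Grm8, the group III receptors, spanned the range from well expressed to barely detected. Grm4 measured 55.1, 111, 187, 101 and 212 CPM in saline at 24 h, the widest spread of any group for this gene. It measured 146, 125, 116, 154 and 131.5 CPM in saline at 1 month. The escalating values were 133, 140.1, 133, 172 and 174 CPM at 24 h and 132.5, 159.6, 149 and 189 CPM at 1 month. Nonescalating libraries ran from 87.0 over a median of 148 to 161 CPM at 24 h, and from 87.9 over a median of 157 to 189 CPM at 1 month. The inputs held 66.5 and 96.7 CPM, and 35 of the 39 purified libraries exceeded both.

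Grm7, a receptor of the presynaptic active zone, measured 50.3, 43.3, 67.2, 12.4 and 47.5 CPM in saline at 24 h, with the lowest value of all libraries in replicate 5. It measured 51.7, 46.2, 36.5, 39.6 and 49.5 CPM in saline at 1 month. The escalating libraries measured 66.1, 47.6, 56.7, 47.0 and 31.2 CPM at 24 h and 37.2, 55.2, 53.8 and 42.1 CPM at 1 month. These groups overlapped throughout. Nonescalating libraries had medians of 47.4 and 46.2 CPM at the 2 times, and 1 library at 24 h reached 102 CPM. The inputs held 61.2 and 70.3 CPM.

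Grm8 was scarce too, with a mean of 3.39 CPM over the purified libraries against 2.03 CPM for Grm2. It was at 0 counts in 1 of 39 purified libraries. It measured 8.10, 2.86, 0.287, 0.185 and 0.388 CPM in saline at 24 h, where 3 of 5 libraries held 5 counts or fewer. The escalating libraries at 24 h measured 5.84, 4.95, 9.18, 3.13 and 2.66 CPM, and the saline libraries at 1 month 2.15, 5.26, 3.09, 2.94 and 0.353 CPM. The ranges overlap, with saline replicate 1 above 4 of the 5 escalating libraries at 24 h. The escalating libraries at 1 month measured 4.58, 1.77, 3.25 and 4.10 CPM, and the inputs 7.15 and 8.42 CPM. Nonescalating libraries ran from 0 over a median of 2.83 to 4.52 CPM at 24 h and from 0.71 over a median of 4.16 to 7.09 CPM at 1 month.

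**Figure D1:**
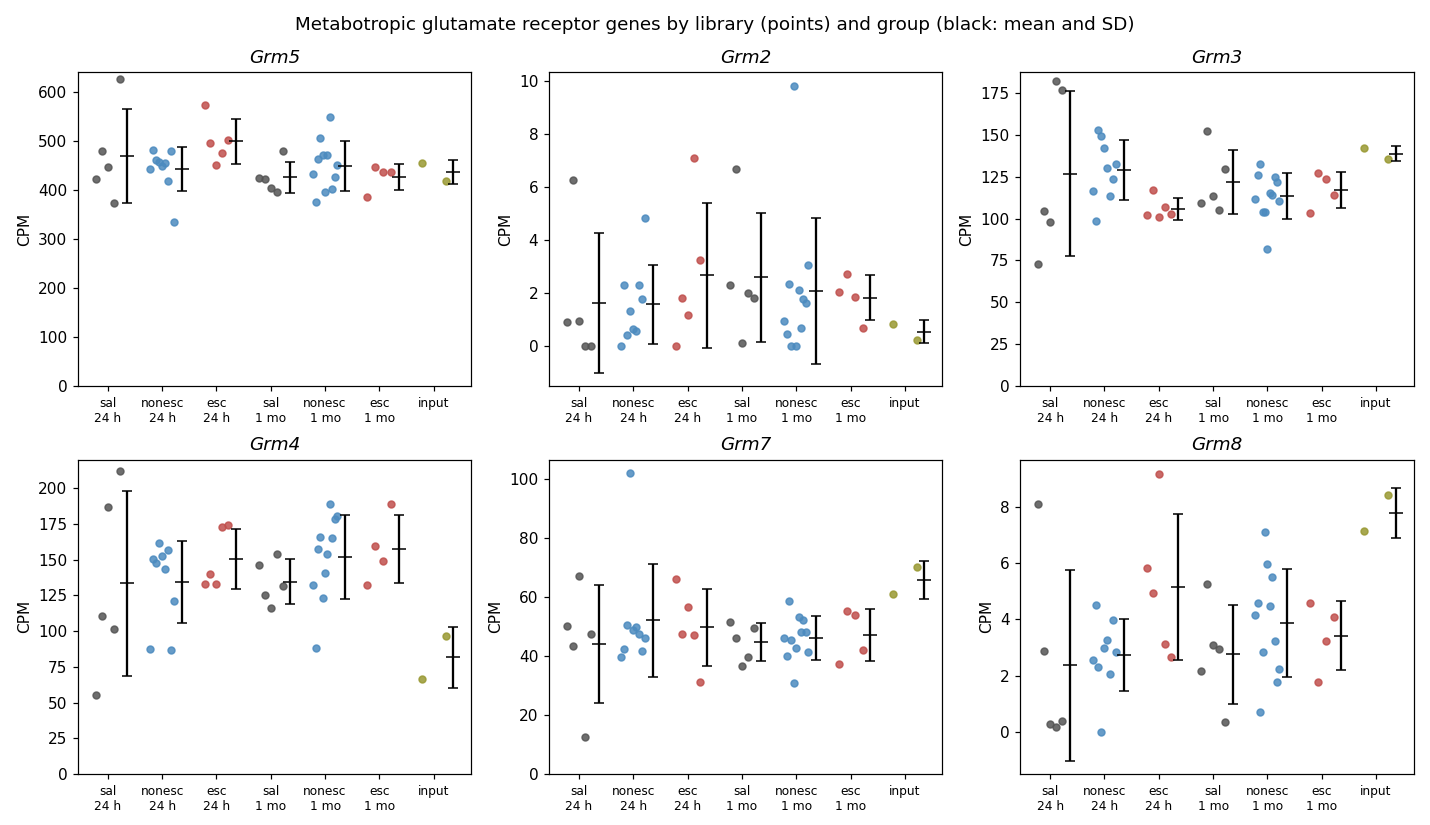
Level in CPM of each receptor gene in every library (points), by group (sal, saline; nonesc, nonescalating; esc, escalating; mo, month), with the group mean and SD in black; each panel has its own linear axis. The 6 purified groups overlap for each gene between treatments of 1 time, and the inputs are low for Grm4 and high for Grm8.

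Divided by exon length, the order of the members was the same at its top whichever length was used. With the merged exons of the GENCODE M21 annotation, mean levels over the 39 purified libraries were 44.1 CPM per kilobase for Grm5, 39.1 for Grm3, 24.0 for Grm4, 8.09 for Grm7, 0.414 for Grm2 and 0.342 for Grm8. Grm5 exceeded Grm3 in 31 of 39 libraries, Grm3 exceeded Grm4 in 39 of 39, and Grm4 exceeded Grm7 in 39 of 39. Grm2 and Grm8 did not differ beyond their spread, with Grm2 above Grm8 in 19 of 39 libraries. With the longest transcript in place of merged exons, Grm8 stood at 0.706 and Grm2 at 0.4305 CPM per kilobase, and these last places changed over. By that length Grm5 exceeded Grm3 in 37 of 39 libraries, Grm3 exceeded Grm4 in 30, and Grm4 exceeded Grm7 in 39. Of 17706 detected genes with a length, Grm5 stood at percentile 95.9 and Grm3 at percentile 95.2. Grm4 followed at percentile 91.3 and Grm7 at 76.5, while Grm2 and Grm8 stood at 35.0 and 33.3.

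**Figure D2:**
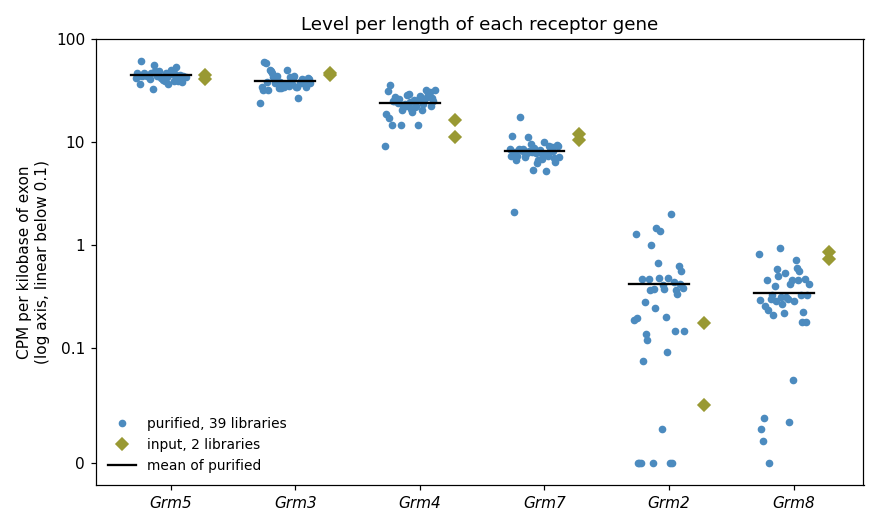
Level of each receptor gene in CPM per kilobase of merged exon, on a log axis that is linear below 0.1, for the 39 purified libraries (circles, mean as a line) and the 2 inputs (diamonds). Grm5, Grm3, Grm4 and Grm7 lie in this order between means of 44.1 and 8.09, and Grm2 and Grm8 lie below with overlapping points.

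Of the summed level per kilobase of all 6 members, Grm5 made up 38.1% ± 3.77 and Grm3 33.6% ± 4.88 (SD, n = 39). Grm4 made up 20.6% ± 3.68 and Grm7 6.98% ± 1.68 (SD, n = 39). Grm2 and Grm8 added 0.363% and 0.308%. In the 2 inputs the share of Grm4 was 9.82% and 14.1%, against a range of 10.98% to 26.5% in the purified libraries. The input shares of Grm3, 41.0% and 38.8%, lay above the purified mean but within the purified range of 27.1% to 51.8%. These shares were not tested.

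The genes lie on 5 chromosomes of GRCm38 (mm10). Grm5 spans chr7:87584168-88134907 on the plus strand and Grm3 chr5:9485541-9725170 on the minus strand. Grm4 lies at chr17:27422387-27521403 and Grm2 at chr9:106643095-106656082, both on the minus strand. Grm7 spans chr6:110645581-111567230 on the plus strand, and Grm8 chr6:27275119-28135178 on the minus strand of the same chromosome. Grm5, Grm7 and Grm8 each extend over at least 550740 bases. Exons of Grm2 and Grm7 overlap antisense transcripts (Gm28111 and Gm20387), and an exon of Grm8 holds Mir592. The strand setting of the counting was not stated, so reads of Grm2 and Grm7 and of their antisense partners cannot be told apart. Mir592 lies on the strand of Grm8 and is counted in the files, so the Grm8 level also carries a doubt.

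The scatter between libraries was smallest for Grm5 and largest for the 2 scarce genes. The biological coefficient of variation, the spread beyond counting noise that edgeR estimated over the 39 purified libraries, was 15.6% for Grm5 and 20.8% for Grm3. It was 25.4% for Grm4, 29.0% for Grm7, 76.7% for Grm8 and 118% for Grm2, against a median of 46.8% over all 15190 genes tested. Among genes within 0.5 log2 units of its level, Grm5 was steadier than most, as 10.2% of 361 such genes had a lower value. Grm4 was more scattered than most, with 76.9% of 1054 genes lower.

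Purified RNA was compared with input RNA to ask which receptors are enriched on ribosomes of Drd1 cells. Grm4 was higher in the purified saline libraries by 0.90 ± 0.39 on the log2 scale (SE, 10 against 2 libraries), a 1.87-fold difference with a 95% interval of 1.05 to 3.34. This difference did not pass the adjusted threshold of 0.05 (p = 0.0358, adjusted p = 0.23 by edgeR's quasi-likelihood test with Benjamini-Hochberg adjustment). With the saline 1 month libraries alone it did, at 0.92 ± 0.19 (adjusted p = 0.00552). With the saline 24 h libraries alone the size was alike, at 0.93 ± 0.51, and the adjusted p was 0.563. The fit of the 1 month libraries alone called 2995 genes, and that of the 24 h libraries alone called 17. The fit of both times called 730 of 15305 genes (4.77%). The Grm4 call thus fell in a setting with many calls, and 1 call among 6 members was not tested against that background. Over all alternative settings the adjusted p of Grm4 ran from 0.00552 to 0.88, the latter without input replicate 1.

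For the other members the purified and input levels could not be separated. Grm5 differed by 0.21 ± 0.18, with a fold interval of 0.891 to 1.499, and Grm3 by 0.02 ± 0.30, with a fold interval of 0.649 to 1.59. The difference of Grm7 was -0.39 ± 0.39 and that of Grm8 -1.44 ± 1.08. Grm2 differed by 2.01 ± 1.85, with fold bounds of 0.263 and 62.0 that leave its direction unsettled. edgeR called 0 of the 6 members, while it called 730 of 15305 genes (4.77%), 297 higher and 433 lower. 1 of the 6 members, Grm4, had an unadjusted p below 0.05, as did 2788 of the 15305 genes. DESeq2 called 0 members and 1027 genes. Without saline 24 h replicate 5, edgeR called 0 members and 2338 of 15323 genes (15.3%), and Grm3 stood at -0.07 ± 0.24 and Grm4 at 0.94 ± 0.38 (adjusted p = 0.12).

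Within the 1 month saline libraries, Grm4 (116 to 154 CPM against 66.5 and 96.7), Grm7 (36.5 to 51.7 against 61.2 and 70.3) and Grm8 (0.353 to 5.26 against 7.15 and 8.42) did not overlap the inputs. Such separation was seen in 40.4% of the 15305 genes, so 3 of 6 members is near the background. In bulk RNA such as this, fewer cells of a type and less RNA per cell cannot be told apart.

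**Figure D3:**
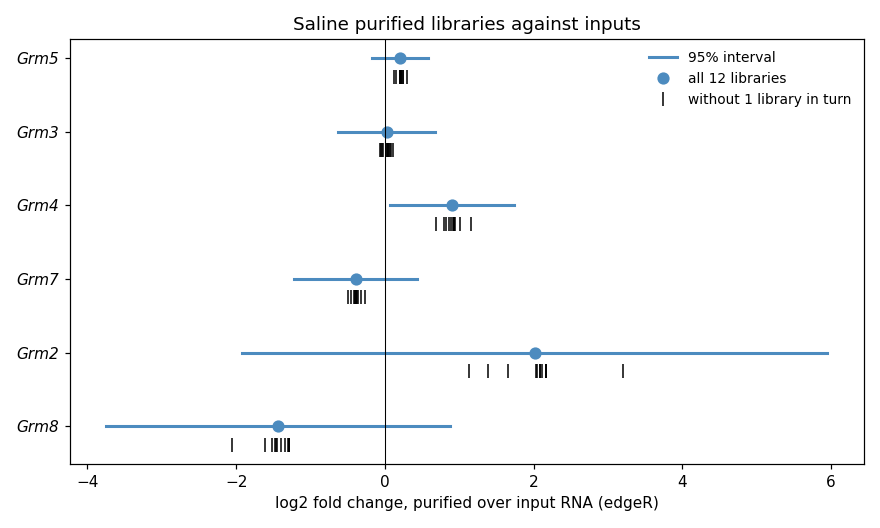
Log2 fold change of purified over input RNA for each receptor gene (points), with its 95% interval (lines), and the same value with each of the 12 libraries left out in turn (ticks). Grm4 is at 0.90 and stays positive in every such fit, Grm3 lies at 0.02, and Grm2 and Grm8 have the widest intervals.

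Markers of other cells differed in the same comparison. Astrocyte markers were called lower in 5 of 9 cases, at a median log2 difference of -2.91, and their sum was 128 to 1122 CPM in purified libraries against 2220 to 2485 CPM in the inputs. Grm3 was at 0.02 ± 0.30, and a direct test between it and these markers was not run. Lower calls were also made for 6 of 8 oligodendrocyte, 3 of 5 oligodendrocyte precursor, 2 of 5 tested microglial, 2 of 8 tested interneuron and 5 of 6 indirect pathway markers. D1 markers were called higher in 4 of 7 cases, and 2 of 7 general spiny neuron markers were higher and 1 lower. The 7 cortical and 5 endothelial markers had no calls, with medians of -0.05 and 3.57. Without saline 24 h replicate 5, 15.3% of all genes were called. Lower calls were then made for 8 of 9 astrocyte, 8 of 8 oligodendrocyte and 4 of 5 oligodendrocyte precursor markers. The counts were 3 of 6 for tested microglial, 6 of 8 for tested interneuron and 6 of 6 for indirect pathway markers. D1 markers were higher in 6 of 7 cases, and the astrocyte, cortical and endothelial medians were -3.66, -0.12 and 2.41. None of the 10 lists had a gene at 0 in all purified libraries. The part of these cells in the receptor values was not tested.

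The signalling partners of the receptors were counted in the same fit, from lists chosen with earlier results known. Over all genes, 1.94% were called higher and 2.83% lower in this fit. Of 15 group I signalling genes 2 rose in purified RNA and 0 fell. Among them Prkcb, a protein kinase C gene downstream of Gq, rose by 0.75 ± 0.20 on the log2 scale. Of 11 tested scaffold genes only Ncdn, the neurochondrin gene, rose, by 1.38 ± 0.20, and Homer1, which links Grm5 to the postsynaptic density, was at 0.40 ± 0.29 (adjusted p = 0.528). Of 17 Gi/o genes 3 rose, namely the G protein subunits Gng3 (1.84 ± 0.34), Gng7 (0.94 ± 0.19) and Gnai1 (0.86 ± 0.22). In the same list Elfn1, a postsynaptic partner of group III receptors in interneurons, fell by 2.11 ± 0.50.

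Of 13 desensitisation genes, the regulators of G protein signalling Rgs7 and Rgs2 rose, by 0.89 ± 0.21 and 0.91 ± 0.22, and Rgs9 fell by 1.51 ± 0.17. Of 12 genes of glutamate clearance and release 0 rose and 4 fell: the vesicular transporter Slc17a8, the glutamine synthetase Glul, the glial transporter Slc1a2 and the glutamine carrier Slc38a2. Their log2 differences were -5.96 ± 0.81, -2.13 ± 0.33, -2.56 ± 0.42 and -1.19 ± 0.33. Medians of the 5 lists, in this order, were 0.38, 0.40, 0.45, 0.11 and -0.74, against -0.01 over all genes. Without saline 24 h replicate 5, where 15.3% of all genes were called, the higher and lower calls of the lists were 4 and 0, 2 and 0, 6 and 2, 2 and 2, and 0 and 5. These counts and medians are a description, without a test of the lists.

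Cocaine and saline groups were compared at 24 h to ask whether receptor messages on ribosomes changed with the drug or with the pattern of intake. None of the 6 members was called by edgeR. Grm5 in escalating against saline libraries differed by 0.02 ± 0.14 on the log2 scale, a fold of 1.01 with a 95% interval of 0.825 to 1.25. In nonescalating libraries it differed by -0.17 ± 0.13, a fold of 0.89 with an interval of 0.743 to 1.07. The intervals of both comparisons of Grm5 thus lie between 0.743 and 1.25.

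Grm3 was at -0.35 ± 0.22 in escalating against saline libraries (p = 0.126, adjusted p = 0.6) and at -0.08 ± 0.19 in nonescalating ones. Without saline 24 h replicate 5, the escalating value was -0.14 ± 0.20, and without replicate 1 it was -0.50 ± 0.20 (adjusted p = 0.289). The difference thus moved with single saline libraries. The nonescalating value turned to 0.12 without replicate 5. In the escalating comparison 6 of 7 tested astrocyte, 6 of 6 cortical and 5 of 5 endothelial markers were below 0, with medians of -0.64, -1.32 and -2.09, and none was called. Without replicate 5 these medians were 0.23, -1.13 and -0.30. Other lists did not all fall. Above 0 were 3 of 5 oligodendrocyte precursor markers (median 0.40), 4 of 8 oligodendrocyte markers (median -0.27) and the 1 tested microglial marker (0.32). Without replicate 5 the precursor and oligodendrocyte medians were 0.66 and 1.19. In the nonescalating comparison all 7 tested astrocyte markers were below 0, at a median of -1.08, which was 0.10 without replicate 5. There, 3 of 5 oligodendrocyte precursor markers were above 0, at a median of 0.54. The part of these markers in the Grm3 values was not tested.

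Grm4 stood at 0.10 ± 0.27 and Grm7 at 0.11 ± 0.33 in escalating against saline libraries, with fold intervals of 0.731 to 1.57 and 0.673 to 1.73. Both changed sign without single saline libraries, Grm4 to -0.11 without replicate 1 and Grm7 to -0.12 without replicate 5. Grm8 had the largest value, 1.09 ± 0.92, with a fold interval of 0.566 to 7.99, and rose to 2.35 without saline replicate 1 (adjusted p = 0.303). Grm2 stood at 0.66 ± 1.26, which became -0.12 without escalating replicate 4 and 2.42 without saline replicate 2. For both scarce genes a difference was not detectable beyond the spread between libraries. In nonescalating against saline libraries Grm4 stood at -0.09 ± 0.23, Grm7 at 0.17 ± 0.29, Grm8 at 0.17 ± 0.81 and Grm2 at -0.14 ± 1.10. The Grm7 value was -0.06 with the 3 libraries of run 2 only.

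Escalating and nonescalating libraries at 24 h differed by 0.19 ± 0.13 for Grm5, with a fold interval of 0.95 to 1.37, and by -0.27 ± 0.19 for Grm3, with one of 0.63 to 1.10. For Grm4 the difference was 0.19 ± 0.23, for Grm7 -0.06 ± 0.29, for Grm8 0.92 ± 0.79 and for Grm2 0.79 ± 1.08. With the escalating and nonescalating groups averaged at equal weight against saline, the members ranged from -0.21 for Grm3 to 0.63 for Grm8. These comparisons share their libraries, so their values are not independent.

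At 24 h edgeR called 0 of 13437 genes (0%) for escalating against saline, 0 (0%) for nonescalating against saline, 0 (0%) for escalating against nonescalating and 5 (0.0372%) for all cocaine against saline. Unadjusted p-values below 0.05 were found for 1416, 1599, 533 and 1833 genes in these comparisons, and for 0 members in each. DESeq2 called 52, 165, 0 and 231 genes, and 0 members in each. The count of 0 members is thus at the background.

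**Figure D4:**
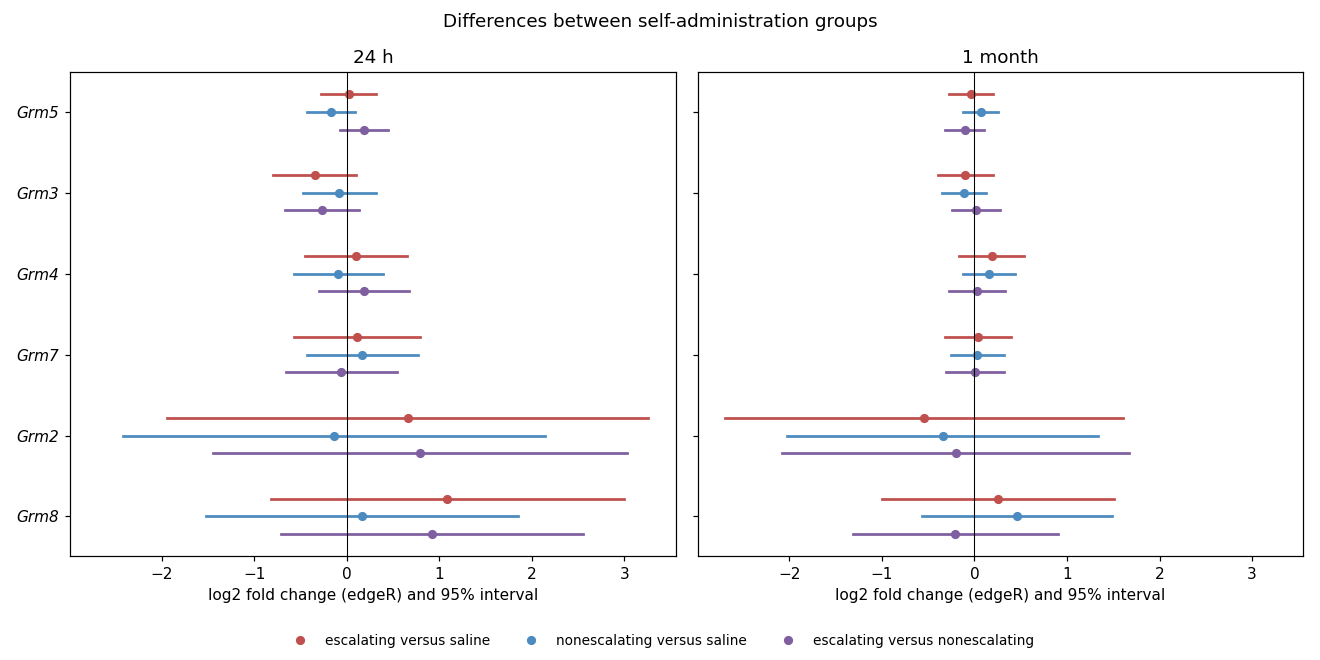
Log2 fold changes between groups at 24 h (left) and about 1 month (right) for each receptor gene, with 95% intervals, from edgeR; colours mark the 3 comparisons named in the key. Every interval includes 0, and those of Grm5, Grm3, Grm4 and Grm7 are narrower at 1 month than at 24 h for all 3 comparisons.

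The partner lists also held no called gene in any comparison between self-administration groups. At 24 h the escalating and nonescalating groups were also averaged at equal weight against saline. In that comparison the scaffold list had a median log2 difference of -0.39, with 2 of 11 genes above 0, against -0.02 over all genes. Without saline replicate 5 that median was -0.19 with 7 of 11 below 0. Homer1 was at -0.22 ± 0.20 and Shank1, a scaffold that binds Homer proteins, at -0.59 ± 0.24 (adjusted p = 0.291 by edgeR). The gene of this list furthest from 0 was Homer2, at -2.13 ± 0.61 (adjusted p = 0.135 by edgeR). The Gi/o list had a median of -0.28, which was -0.09 without replicate 5, and the group I signalling list one of -0.12, which was -0.11. The desensitisation list was at 0.08 with and without it, and the clearance list moved from -0.30 to -0.02. Homer1, Homer2 and Shank1 were named after their values were seen.

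At about 1 month none of the 6 members was called by edgeR. Grm5 differed by -0.04 ± 0.12 between escalating and saline libraries and by 0.07 ± 0.09 between nonescalating and saline libraries. The fold intervals were 0.827 to 1.15 and 0.918 to 1.20. Grm3 stood at -0.10 ± 0.14 and -0.11 ± 0.11 in these comparisons, and Grm7 at 0.04 ± 0.17 and 0.03 ± 0.14. For these 3 genes the widest fold interval, that of Grm7 in the escalating comparison, was 0.802 to 1.31.

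Grm4 was at 0.19 ± 0.17 in escalating and 0.16 ± 0.14 in nonescalating against saline libraries, with fold intervals of 0.894 to 1.45 and 0.916 to 1.35. The nonescalating value differed between runs. It was 0.01 with run 1, whose libraries measured 87.9 to 166 CPM, and 0.35 with run 2, whose libraries measured 154 to 189 CPM. Without escalating replicate 4, the highest at 189 CPM, the escalating value was 0.06.

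Grm8 stood at 0.26 ± 0.61 and 0.46 ± 0.50 and Grm2 at -0.55 ± 1.05 and -0.34 ± 0.82 in the escalating and nonescalating comparisons with saline. Without saline 1 month replicate 2, the highest saline library for both genes, the Grm2 values turned to 0.18 and 0.39 and the Grm8 values rose to 0.62 and 0.83. Between escalating and nonescalating libraries the members ranged from -0.21 for Grm8 to 0.03 for Grm4. The Grm5 difference was -0.11 ± 0.10.

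At 1 month edgeR called 0 of 14488 genes (0%) in each of the 4 comparisons, which are escalating and nonescalating against saline, escalating against nonescalating, and all cocaine against saline. Unadjusted p-values below 0.05 were found for 177, 498, 171 and 313 genes, and for 0 members. DESeq2 also called 0 genes in each. No list gene of the receptor pathway was called.

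Time after self-administration was compared within each treatment. The labels name no batch. Library numbers in the titles run group by group, with all 24 h libraries before those of 1 month, so a batch that followed this order could not be told apart from time. Grm5 in the escalating group was lower at 1 month than at 24 h by -0.27 ± 0.13 on the log2 scale, a fold of 0.83 (p = 0.0501, adjusted p = 0.923). The groups did not overlap, at 387 to 447 CPM against 451 to 574 CPM, and 4.86% of the 15190 genes tested were separated in this way. The value stayed between -0.32 and -0.21 over all alternatives, with adjusted p never below 0.62.

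In the same comparison the saline group was at -0.21 ± 0.13 (p = 0.0993, adjusted p = 0.413) and the nonescalating group at 0.03 ± 0.09 for Grm5. The difference of differences, escalating minus saline at 1 month minus 24 h, was -0.06 ± 0.18, and for nonescalating minus saline 0.24 ± 0.15 (adjusted p = 0.574 by edgeR). Without saline 24 h replicate 6, the saline value was -0.09, and these differences of differences were -0.18 and 0.11. Cortical markers were higher at 1 month than at 24 h in the escalating group in 6 of 6 tested cases, with a median of 0.96, and endothelial ones in 5 of 5, with a median of 1.49. Other lists went the other way: 1 of 8 oligodendrocyte markers was above 0, at a median of -0.33, and 0 of 4 tested microglial ones, at -2.36. None of these markers was called, and their part in the Grm5 value was not tested.

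No member passed the test with time. Grm3 differed by -0.14 ± 0.18 in saline, which was 0.04 without replicate 5, by -0.17 ± 0.13 in nonescalating and by 0.10 ± 0.19 in escalating libraries. Grm4 differed by -0.06 ± 0.22, 0.19 ± 0.16 and 0.03 ± 0.24, and Grm7 by -0.05 ± 0.26, -0.18 ± 0.18 and -0.12 ± 0.28. The saline values moved with single libraries. That of Grm4 ran from -0.27 without saline 24 h replicate 1 to 0.16 without replicate 6. That of Grm7 ran from -0.29 without replicate 5 to 0.16 without replicate 3. The nonescalating Grm4 value was -0.05 with run 1 and 0.56 with run 2. Grm2 and Grm8 had errors of 0.54 to 1.23 in these comparisons.

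edgeR called 129 of 15190 genes (0.849%) between times in the saline group, 0 (0%) in the nonescalating and 0 (0%) in the escalating group. For the differences of differences it called 0 (0%) for escalating and 1 (0.00658%) for nonescalating. Unadjusted p-values below 0.05 were found for 2472, 409, 818, 1114 and 1766 genes and for 0 members. DESeq2 called 663, 0, 0, 2 and 99 genes, and 0 members in each. All 6 members were tested in each of the 14 comparisons, and 0 were called with all libraries. The exception among the alternatives was Grm4 in purified against input RNA with the saline 1 month libraries only.

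The genes whose levels followed each member most closely over the 39 purified libraries were listed, as Pearson r of log2(CPM + 2) among 9943 genes. For Grm5 they were AK081211 (0.724), St8sia3, a sialyltransferase gene (0.721), and Omg, a myelin glycoprotein gene also expressed by neurons (0.712). For Grm3 they were Cacna1e, an R-type calcium channel gene (0.727), Nnat, the neuronatin gene (0.707), and Prrt3 (0.705). For Grm4 they included Cacna1a, a P/Q-type calcium channel gene (0.63), and Tmem164 (0.618). For Grm7 they were Fam134a (0.82), Pcbp3 (0.817) and Rgmb (0.789). All points share the depth and purity of their library, and the lists rested in part on saline 24 h replicate 5. Without it, 1 of 3 genes remained for Grm5, 1 for Grm3, 2 for Grm4 and 0 for Grm7, whose r with Fam134a became 0.594.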

How the data were processed

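Immunopurified and input RNA was sequenced as 41 libraries. The authors deposited 1 file of whole-number read counts per gene symbol for each library, made with STAR 2.0.0e on mm10 and HTSeq, per the submitters' processing notes. The annotation and strand setting were not stated there. From the deposited counts, CPM was computed per 1e6 counts on named genes, leaving out 5 summary lines per file, and CPM per kilobase with GENCODE M21 lengths matched by symbol.

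edgeR 4.0.16 (R 4.3.3; TMM scaling, filterByExpr, robust quasi-likelihood test) was fitted over all genes, in 4 fits: saline purified and input libraries, the 24 h libraries, the 1 month libraries, and all 39 purified libraries for time. Adjusted p-values are Benjamini-Hochberg over all genes tested, with a threshold of 0.05 and 95% intervals. DESeq2 1.42.0 was an alternative, as were other scaling, filters, a replicate block, each saline, escalating and input library left out in turn, and the nonescalating runs apart. In 128 pairs of libraries within a group, the chi-square of the counts per degree of freedom was at least 8.44, so none agreed within sampling noise.

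All 6 members were named in every comparison. Of the pathway lists, genes past the threshold were named, up to 4 per list by lowest p. Some genes that these rules name are not reported here. The members and lists were chosen with earlier results of these data known.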

Additional observations from a re-analysis of the deposited data

Results flagged for a closer look

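A library stood far from the rest of its group in 5 of 30 groups of 4 to 10 libraries, by the gap to its nearest neighbour against the group's range. For normally spread values, chance alone flags about 1 in 20 such groups. That rate may not hold for Grm2 and Grm8, whose values lie at or near 0, and all genes share the same libraries. Grm2 was 6.26 CPM in saline 24 h replicate 2, where the other 4 libraries held 0 to 0.956 CPM. It was 4.85 CPM in nonescalating 24 h replicate 3 of run 2, against at most 2.30 CPM in the others. The same library had the lowest Grm5 of its group, 335.2 CPM against 419 to 483 CPM. Grm5 was 387.1 CPM in escalating 1 month replicate 1, against 437 to 447 CPM. Grm7 was 102.1 CPM in nonescalating 24 h replicate 4 of run 1, against 39.6 to 50.7 CPM, and that library held 0 counts of Grm8.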

How the results depend on the processing

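In 83 alternative fits, 1 of 1730 receptor values was called: Grm4 in purified against input RNA with the saline 1 month libraries only, which raised the members called there from 0 to 1. That setting also called 2995 genes, against 17 with the saline 24 h libraries only and 730 of 15305 (4.77%) with both times. The sign of an uncalled value changed 128 times, in 50 of 84 results. Numbers of genes called, with the lowest and highest over the alternatives, were 0 to 52 for escalating against saline at 24 h, 0 to 258 for nonescalating, 0 to 499 for all cocaine and 9 to 663 for time in saline. They were 0 to 1 for escalating against nonescalating at 24 h, and 0 to 2 and 0 to 99 for the differences of differences. The causes were not tested.

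With the replicate block, 0 members were called in any comparison it could be fitted for, and Grm4 in purified against input RNA was 0.58. The titles name no pairing of saline and escalating libraries of the same number, and the main fits used none. The deviations of such libraries correlated at -0.12 to 0.28, with 1 of 8 pairs over 0.1. Of 8 saline libraries, 1 correlated best with its own number. A low correlation cannot show that the libraries were unpaired, so pairing remains unknown. Grm2 and Grm8 were not tested where a mean of 5 CPM was required. The fits without robust estimates, and the list counts and medians without saline 24 h replicate 5, were chosen after seeing the data.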
